A study of Mus musculus with 4 samples.

Results

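The 10 genes described here encode the abundant heat shock proteins and chaperones of the cytosol (Hspa8, Hsp90aa1, Hsp90ab1, Hsph1 and Dnajb1), the endoplasmic reticulum (ER; Hspa5 and Hsp90b1) and the mitochondrion (Hspa9, Hspd1 and Hspe1). They were listed by name, and every open-chromatin peak whose summit lay inside a gene or within 2 kb of either boundary was taken from each library. Hspd1 and Hspe1 overlap at their starts and were treated as 1 locus, which gave 9 loci, and the 10 genes stood among 21887 protein-coding genes to which the same rule was applied. At these loci 21 peaks were listed in all, among 1483 to 12298 peaks per library.

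Open chromatin was assayed by ATAC-seq, where transposase insertion marks accessible DNA, in 4 libraries from mouse hearts at P0 (newborn). WT hearts gave 2 libraries, called WT-1 and WT-2 after their replicate numbers, and miR-187 hearts gave 2, called KI-1 and KI-2 for the knockin. Per the study's methods the miR-187 mice, on a C57BL/6J background, carried a single copy of mmu-miR-187 in the Rosa26 locus under the Tek (Tie2) promoter and enhancer, which is active in endothelial cells and some blood cells. The labels give neither the zygosity of the knockin allele nor the sex of the animals, and the study describes its mouse ATAC-seq comparison as +/+ against KI/KI. The labels name heart as the tissue, with 50000 cells per library, and the study describes magnetic isolation of CD31-positive endothelial cells from P0 hearts. Whether the 2 libraries of a group came from separate animals or pools is not in the labels either, so the p-values below measure only the spread between these libraries, which may be technical. The comparison asks how raised miR-187 bears on chromatin openness.

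Chaperones bind unfolded proteins and release them in cycles of ATP hydrolysis. HSP70 proteins act with J-domain partners that deliver substrates and with nucleotide exchange factors, HSP90 proteins act later on partly folded clients, and the HSPD1 chamber with its HSPE1 lid encloses proteins imported into mitochondria. Their genes are transcribed in most cells and are raised further by heat shock factor 1 on pairs of the unit GAA or, for ER chaperones, by ATF6 on the ER stress element.

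The lists of WT-1, WT-2, KI-1 and KI-2 held 9452, 12298, 7496 and 1483 peaks. The libraries also differed in their inferred read background. Since the sources used here give no read totals, it was derived from the fold enrichment and p-value of each peak. The genome-wide background was 0.35 and 1.05 reads per 200 bp in WT-1 and WT-2, and 0.403 and 0.206 in KI-1 and KI-2. The background of WT-2 was therefore 5.06 times that of KI-2, and those of WT-1 and KI-1 were 1.70 and 1.95 times it. A library sequenced to less depth and one with few cut sites cannot be told apart from these values, and the absence of a peak is no proof of closed chromatin. Of 12 endothelial marker genes, 3, 7, 5 and 2 had a peak in WT-1, WT-2, KI-1 and KI-2. These were 25%, 58.3%, 41.7% and 16.7%, against 30.9%, 39.7%, 27.0% and 5.22% of all protein-coding genes by the same rule. Pecam1, which encodes CD31, had a peak in the first 3 of these lists and Cdh5 in both WT lists and in KI-2. Erg, Tie1, Egfl7 and Eng had one in WT-2 only, Tek in WT-2 and KI-1, and Kdr in WT-1 and KI-1. Esam had one in both miR-187 lists and in neither WT list, Vwf had one in KI-1 only, and Emcn and Cldn5 had none. Markers of other heart cells had a peak in 2, 1, 1 and 0 of 10 cardiomyocyte genes, 2, 4, 1 and 0 of 6 fibroblast genes, 1, 0, 0 and 1 of 5 mural genes, 0 of 4 erythroid genes in every list, and 2, 1, 1 and 0 of 4 immune genes. The fibroblast shares were above the endothelial ones in WT-1 and WT-2 (33.3% and 66.7%) and below them in KI-1 and KI-2 (16.7% and 0%). These counts therefore do not identify the cells. The part of other heart cells in the results below was not tested.

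Chaperone loci held peaks in every library, but in very different numbers. A peak was listed at 5 of 9 loci in WT-1, 8 in WT-2, 5 in KI-1 and 1 in KI-2. Counted as genes, these were 5, 9, 5 and 1 of the 10 members, that is 50%, 90%, 50% and 10%, with the single Hspd1/Hspe1 peak counted for both genes. By the same rule 30.9%, 39.7%, 27.0% and 5.22% of all protein-coding genes had a peak in these lists. The members' share was above these in WT-1, WT-2 and KI-1, while in KI-2 it rests on 1 gene. The members were chosen with earlier results of these data known, so this order is a description only. Among the strongest 1483 peaks of each list 1, 0, 1 and 1 loci had a peak, against 6.49%, 7.06%, 6.64% and 5.22% of all genes, and counts of 0 or 1 locus give no comparison with these shares. No locus lacked a peak in all 4 lists, against 49.1% of protein-coding genes, and 4 of 9 loci had a peak in 3 lists, against 13.9% of genes. None had a peak in all 4 lists, which 2.35% of genes did. The members were short genes, with a median length of 5422 bp against 17169 bp for all protein-coding genes, and the part of gene length in these shares was not tested. Counting only peaks within 1 kb of a gene boundary, 5, 9, 5 and 1 of the members had one, against 21.0%, 29.9%, 19.4% and 3.07% of all genes. The mean over the libraries of a group was 6.5 ± 2.12 loci (SD, n = 2) in WT and 3 ± 2.83 (n = 2) in miR-187, and the 2 groups overlapped at 5 loci.

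**Figure D1:**
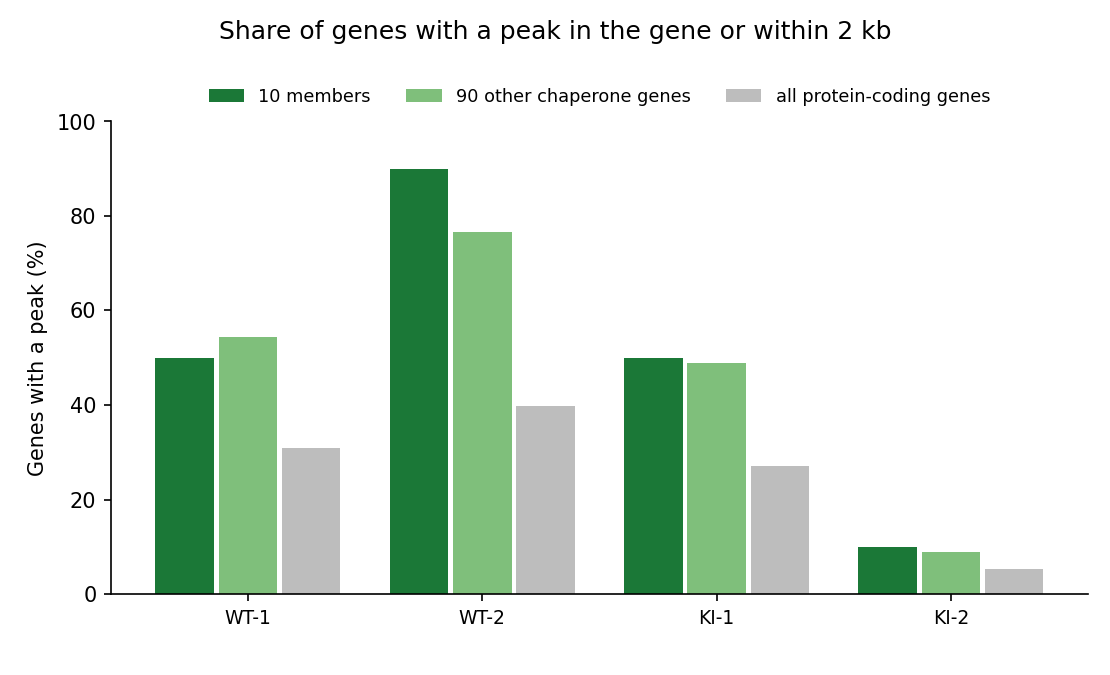
Bars give the percentage of genes with a peak whose summit lies in the gene or within 2 kb, for the 10 members, 90 other chaperone genes and all 21887 protein-coding genes, in each of the 4 libraries. Members reach 90% in WT-2, against 39.7% of all protein-coding genes, and the 10% in KI-2 is 1 gene.

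The peaks lay close to the gene boundaries, and at the 5′ end wherever the strand was known. All 21 summits were within 1 kb of a gene boundary and 19 were within 500 bp, with a median distance of 168 bp and a range of 9 to 834 bp. Of all peaks in the windows of protein-coding genes, 55.4% to 63.6% per list were that close. For the 15 peaks at genes whose strand was known, all 15 were at the 5′ end. Peaks were 200 to 870 bp wide, and 14 of 14 pairs of libraries with a peak at the same locus had overlapping peaks, with summits 3 to 536 bp apart (median 93 bp). Each chaperone locus with a peak in more than 1 library thus had overlapping peaks, but the summits did not always coincide. At Hsph1 the KI-1 summit lay 486 and 536 bp from those of WT-1 and WT-2.

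**Figure D2:**
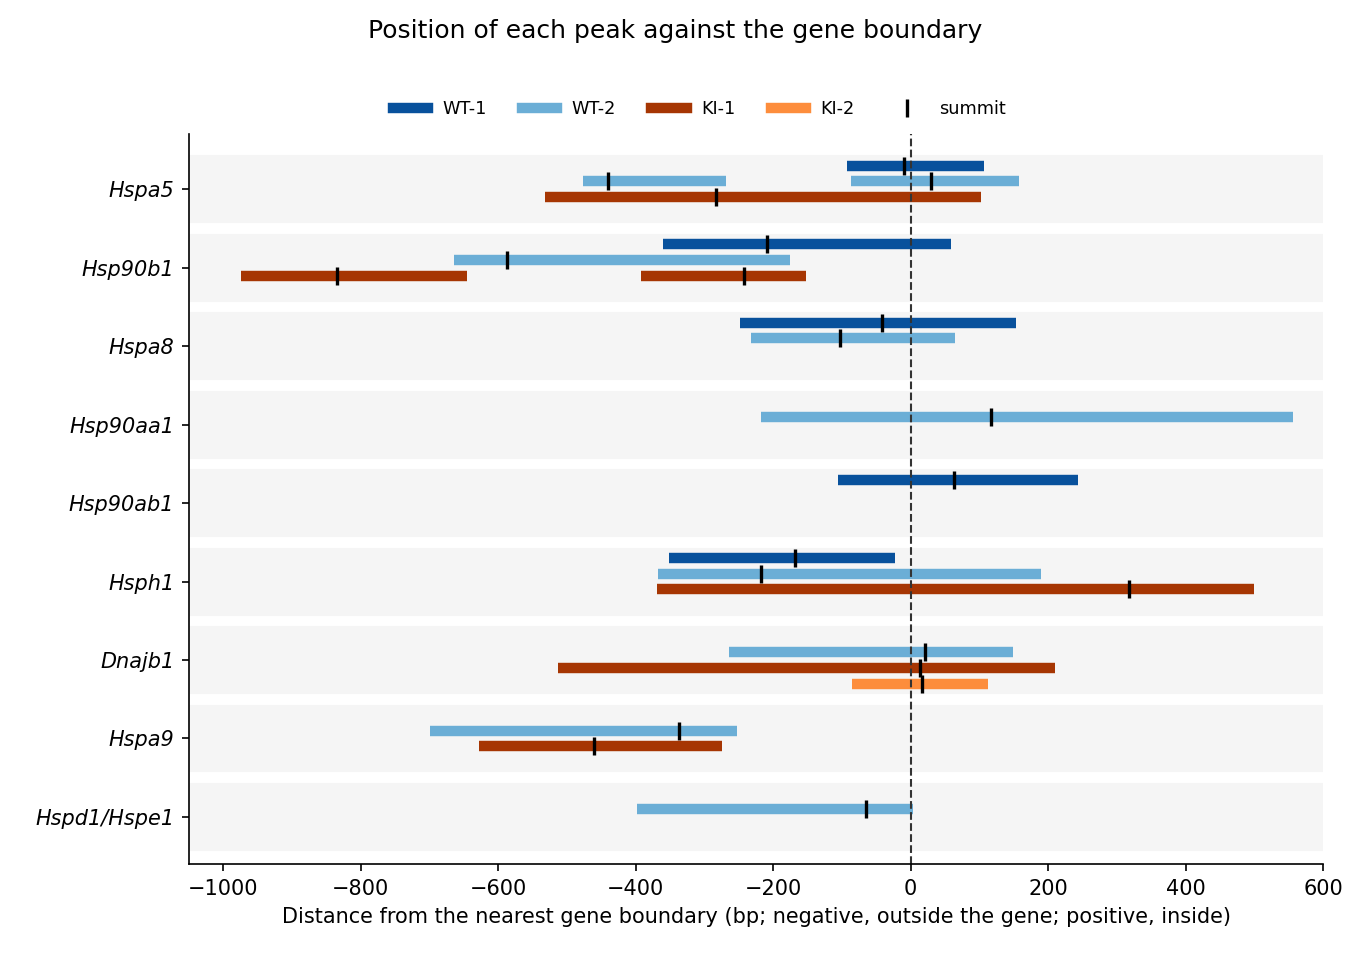
Horizontal bars span each of the 21 peaks, and vertical ticks mark summits, as distance in bp from the nearest gene boundary, negative outside the gene and positive inside. The 21 summits lie within 834 bp of a boundary, and the 3 Dnajb1 summits fall within 7 bp of each other.

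Promoter sequences were available for some of these loci, and they cover only part of the stretches under the peaks. RefSeq promoters of GRCm38.p6, which run from 250 bases before to 50 after a transcription start, were matched for Hspa5, Hsp90b1, Hsph1, Dnajb1, Hspd1 and Hspe1, 6 of the 10 members. The other members are Hspa8, Hspa9, Hsp90aa1 and Hsp90ab1. The 9 promoters of these 6 genes had 58% to 73.3% G and C and 18 to 41 CpG dinucleotides, against medians of 56.3% and 13 over promoters of protein-coding genes. Both strands were searched for GAANNTTC and TTCNNGAA, the 2 arrangements of a pair of heat shock units, for the ER stress element (CCAAT, 9 bases, CCACG), for CCAAT and for the GC box GGGCGG. GAANNTTC and TTCNNGAA read the same on both strands and can overlap each other, and each ER stress element holds a CCAAT. Of 32851 promoters of this length, 7.86% held GAANNTTC, 8.52% TTCNNGAA, 0.119% (39 promoters) the ER stress element, 37.4% CCAAT and 35.7% GGGCGG. Over the 21263 promoters of protein-coding genes the shares were 7.21%, 7.61%, 0.141%, 38.2% and 46.2%. Each sequence below is shown 5′ to 3′ on the strand of its gene, and capitals mark heat shock pairs, ER stress elements and CCAAT in either orientation.

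The ER pair are shown because they hold the rare ER stress element. The Hspa5 promoter is chr2:34771840-34772139 on the plus strand of GRCm38 and the Hsp90b1 promoter is chr10:86705395-86705694 on the minus strand.
Hspa5: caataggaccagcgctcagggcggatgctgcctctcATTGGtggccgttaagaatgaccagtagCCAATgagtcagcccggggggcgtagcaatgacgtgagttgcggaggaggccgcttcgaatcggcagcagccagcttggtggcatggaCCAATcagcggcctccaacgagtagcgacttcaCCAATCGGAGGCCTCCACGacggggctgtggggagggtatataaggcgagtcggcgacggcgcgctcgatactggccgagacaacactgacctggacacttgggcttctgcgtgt
Hsp90b1: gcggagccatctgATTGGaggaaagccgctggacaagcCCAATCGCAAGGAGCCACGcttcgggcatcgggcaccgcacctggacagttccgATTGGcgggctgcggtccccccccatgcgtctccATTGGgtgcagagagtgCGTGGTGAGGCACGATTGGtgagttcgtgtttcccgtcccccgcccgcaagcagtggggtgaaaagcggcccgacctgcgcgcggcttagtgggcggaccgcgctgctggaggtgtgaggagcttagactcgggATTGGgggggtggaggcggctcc
Hspa5 held 1 ER stress element, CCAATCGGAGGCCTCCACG, 65 to 47 bases before the start at chr2:34772025-34772043, and 4 CCAAT in all. Hsp90b1 held 2, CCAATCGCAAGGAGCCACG at 212 to 194 bases before the start and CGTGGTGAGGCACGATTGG, on the opposite strand, at 107 to 89 bases, with 6 CCAAT in all. A match is a description of letters, not a measured site.

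Hspa5 encodes BiP, the HSP70 of the ER lumen and a regulator of the unfolded protein response. The gene lies at chr2:34772090-34776529 (GRCm38). Its start had a peak in 3 libraries. WT-1 had a peak at chr2:34771997-34772197, with a fold enrichment over local background of 6.38 and a summit 9 bp from the start. WT-2 had 2 peaks, at chr2:34771613-34771821 (fold 4.17) and chr2:34772003-34772248 (fold 4.44). In KI-1 a single wider peak, chr2:34771558-34772192 with fold 5.2, overlapped the WT-1 peak and both WT-2 peaks. It ended before the last base of the WT-1 peak and of the second WT-2 peak. KI-2 had none. The ER stress element lay under the peak of each of these 3 libraries. Peaks covered 201 and 455 bases of the locus in the WT replicates (328 ± 180, SD, n = 2) and 635 and 0 in the miR-187 replicates (318 ± 449, n = 2). The miR-187 values lay on either side of the WT values, and the difference of -10.5 bases was smaller than either SD (exact permutation test, 2-sided, p = 1). With 2 libraries per group this exact test cannot go below p = 0.333, so no single locus could pass 0.05, and after Benjamini-Hochberg adjustment over the 11143 genes with a peak in any list, every one of the 9 loci had an adjusted p of 1.

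Hsp90b1 encodes GRP94, the HSP90 of the ER, and lies at chr10:86690841-86705444. Fold enrichment was 5.51 in WT-1 (chr10:86705385-86705805) and 4.08 in WT-2 (chr10:86705619-86706108). KI-1 had 2 peaks, chr10:86705596-86705837 with fold 5.91 and chr10:86706089-86706418 with fold 5.95, and KI-2 had none. The same 3 libraries as at Hspa5 therefore had a peak. The element farther from the start lay under a peak in each of the 3, and the nearer one under the peak of WT-1 only. Covered bases were 421 and 490 in WT (455.5 ± 48.8, n = 2) and 572 and 0 in miR-187 (286 ± 404, n = 2), and the groups overlapped in range (exact permutation p = 1). The neighbouring gene Ttc41 also holds these peaks in its window, so they cannot be assigned to Hsp90b1 alone.

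The cytosolic members with a promoter in the table are shown because their peaks cover most of it in at least 2 libraries. The Hsph1 promoter is chr5:149636287-149636586 on the minus strand and the Dnajb1 promoter is chr8:83607925-83608224 on the plus strand.
Hsph1: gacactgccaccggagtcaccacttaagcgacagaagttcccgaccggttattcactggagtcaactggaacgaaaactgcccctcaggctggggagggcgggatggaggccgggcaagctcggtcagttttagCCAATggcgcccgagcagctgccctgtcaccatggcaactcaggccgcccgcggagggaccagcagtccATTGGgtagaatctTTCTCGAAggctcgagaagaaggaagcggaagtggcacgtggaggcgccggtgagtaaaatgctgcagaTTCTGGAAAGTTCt
Dnajb1: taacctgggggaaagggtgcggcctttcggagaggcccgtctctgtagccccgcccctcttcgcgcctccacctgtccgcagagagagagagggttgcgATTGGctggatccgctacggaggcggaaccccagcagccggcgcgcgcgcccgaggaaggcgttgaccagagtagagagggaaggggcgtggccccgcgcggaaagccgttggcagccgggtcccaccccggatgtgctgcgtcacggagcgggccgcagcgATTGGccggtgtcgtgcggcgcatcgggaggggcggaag
Hsph1 held 1 GAANNTTC and 2 TTCNNGAA. TTCTCGAA lay 33 to 26 bases before the start of the promoter shown, and the run TTCTGGAAAGTTC within the 50 bases after it. From the start of a second Hsph1 promoter TTCTCGAA lay at 54 to 47 bases. Both starts (chr5:149636336 and chr5:149636315) and both matches lie inside the gene boundary used here, chr5:149636498. Dnajb1 held no heat shock pair by these letters in this window, 2 CCAAT and 2 GC boxes.

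Hspa8 encodes HSC70, the constitutive cytosolic HSP70, and lies at chr9:40801276-40805202. It was the only locus of the 9 with a peak in both WT libraries and in neither miR-187 library. The peak of WT-1 was chr9:40801027-40801429 (fold 5.69, above 78.4% of that list by q) and that of WT-2 was chr9:40801043-40801340 (fold 3.52, above 19.0% of its list), with summits 62 bp apart. Covered bases were 403 and 298 in WT (350.5 ± 74.2, n = 2) and 0 and 0 in miR-187, so the groups did not overlap and the difference was -350.5 bases (exact permutation p = 0.333, the smallest possible). This pattern was that of 7.88% of all protein-coding genes, and 14.6% of them had more covered bases in both WT libraries than in either miR-187 library. The share of loci, 1 of 9, was close to these backgrounds and is no result about the chaperones. No locus had more covered bases in both miR-187 libraries, which 0.283% of genes had, and none had a peak in both miR-187 lists alone, which 0.169% of genes had. The inferred background of KI-1 was 1.15 times that of WT-1, and the part of depth in the missing peak was not tested. With a window of 5 kb in place of 2 kb, 278 bases were counted for Hspa8 in KI-1, against 403 and 498 in WT. The bases of KI-1 and those added in WT-2 lay in other peaks, with summits more than 2 kb from the gene.

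The cytosolic HSP90 genes each had a single peak, in a WT library. Hsp90aa1, the stress-inducible form at chr12:110691036-110696395, had a peak of 776 bp in WT-2 only (chr12:110695838-110696613, fold 4.71), with its summit 117 bp inside the gene. Hsp90ab1, the constitutive form at chr17:45567778-45573261, had a peak in WT-1 only (chr17:45573018-45573366, fold 5.12), with its summit 63 bp inside. Covered bases were 0, 776, 0 and 0 at Hsp90aa1 and 349, 0, 0 and 0 at Hsp90ab1 in WT-1, WT-2, KI-1 and KI-2. At each gene the other WT library was at 0 like the miR-187 libraries, and the exact permutation p was 1 for both. The pattern of a peak in WT-2 alone was that of 9.07% of protein-coding genes, and in WT-1 alone of 4.90%. The Hsp90ab1 peak also lies in the window of the noncoding gene Gm35399. With a 5 kb window Hsp90ab1 had 702 and 557 covered bases in WT and 0 in both miR-187 libraries. The added bases lay in other peaks, with summits more than 2 kb from the gene. With that window 16.1% of all protein-coding genes had more covered bases in both WT libraries than in either miR-187 library.

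Hsph1 encodes HSP110, a nucleotide exchange factor for HSP70, and lies at chr5:149616843-149636498. Fold enrichment was 6.59 in WT-1 (chr5:149636521-149636849), 5.45 in WT-2 (chr5:149636308-149636865) and 6.19 in KI-1 (chr5:149635998-149636867). The miR-187 peak was the widest of all 21, at 870 bp, and contained both WT peaks. Covered bases were 329 and 558 in WT (443.5 ± 162, n = 2) and 870 and 0 in miR-187 (435 ± 615, n = 2), a difference of -8.5 bases (exact permutation p = 1). The miR-187 libraries thus held the highest and the lowest value. TTCTCGAA lay under the peaks of WT-2 and KI-1, and TTCTGGAAAGTTC under that of KI-1 only.

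Dnajb1 encodes HSP40, a J-domain protein that brings substrates to HSP70, and lies at chr8:83608175-83612653. It was the only member with a peak in both miR-187 libraries. Fold enrichment was 5.42 in WT-2 (chr8:83607910-83608324), 5.77 in KI-1 (chr8:83607662-83608385) and 4.29 in KI-2 (chr8:83608089-83608288), and WT-1 had no peak. The 3 summits lay 14 to 21 bp inside the gene and 3 to 7 bp from each other, beside a CCAAT on the opposite strand at 11 to 15 bases after the start that all 3 peaks covered. In KI-2 the peak rested on 5 reads at the summit and ranked above 6.44% of its list. Covered bases were 0 and 415 in WT (207.5 ± 293, n = 2) and 724 and 200 in miR-187 (462 ± 371, n = 2). The groups overlapped, since 200 lay below 415, and the difference of 254.5 bases was smaller than either SD (exact permutation p = 0.667). The same pattern, a peak in every list but WT-1, was found at 128 protein-coding genes (0.585%). The peaks also lie in the window of the noncoding gene Gm42029.

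**Figure D3:**
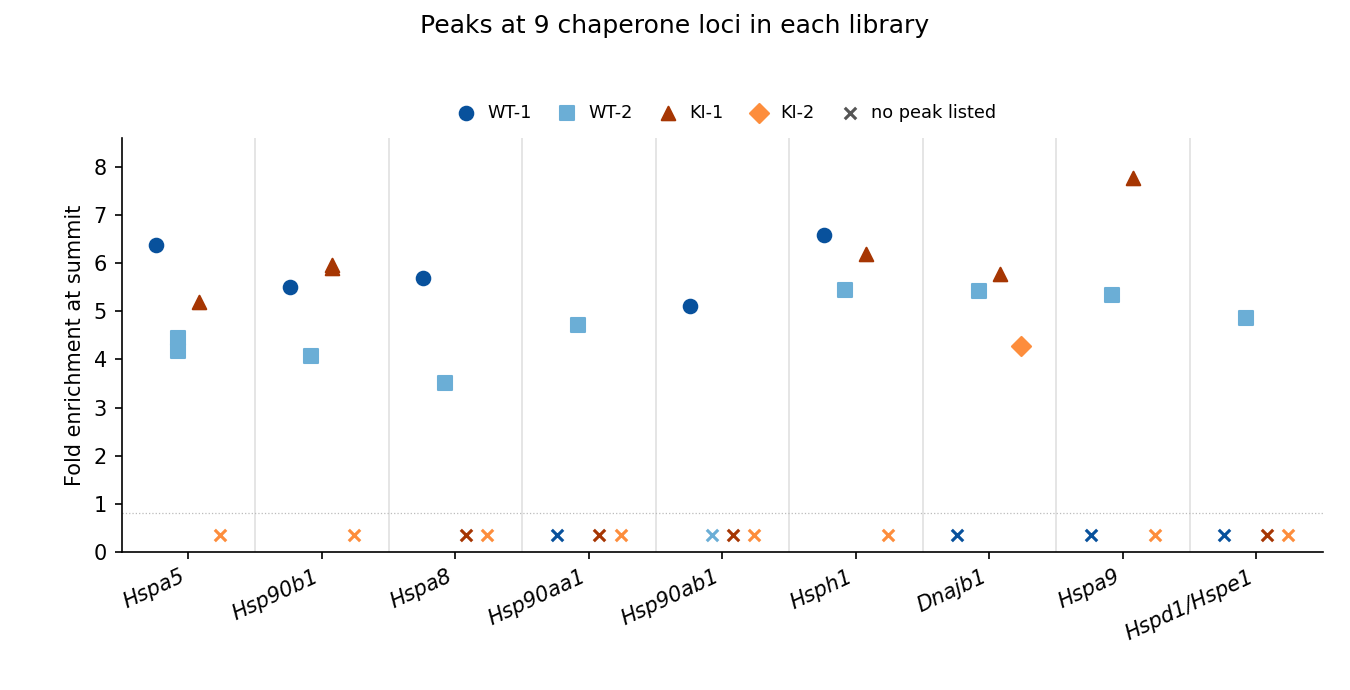
Points give the fold enrichment over local background at the summit of each peak, by locus and library, and crosses below the dotted line mark libraries with no listed peak. The values run from 3.52 (Hspa8, WT-2) to 7.78 (Hspa9, KI-1), and KI-2 has a point only at Dnajb1.

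In the mitochondrial group, Hspd1 and Hspe1 encode the chamber and lid of the mitochondrial chaperonin and are transcribed in opposite directions from neighbouring starts, which is why both promoters are shown. The locus is chr1:55077833-55091317. The Hspe1 promoter is chr1:55087898-55088197 on the plus strand and the Hspd1 promoter chr1:55088194-55088493 on the minus strand, so they overlap at their ends.
Hspe1: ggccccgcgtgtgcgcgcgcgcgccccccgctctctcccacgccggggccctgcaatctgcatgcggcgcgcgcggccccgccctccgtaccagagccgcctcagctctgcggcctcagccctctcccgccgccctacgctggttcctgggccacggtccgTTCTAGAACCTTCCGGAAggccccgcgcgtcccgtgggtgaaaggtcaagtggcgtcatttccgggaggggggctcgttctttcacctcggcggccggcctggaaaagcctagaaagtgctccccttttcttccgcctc
Hspd1: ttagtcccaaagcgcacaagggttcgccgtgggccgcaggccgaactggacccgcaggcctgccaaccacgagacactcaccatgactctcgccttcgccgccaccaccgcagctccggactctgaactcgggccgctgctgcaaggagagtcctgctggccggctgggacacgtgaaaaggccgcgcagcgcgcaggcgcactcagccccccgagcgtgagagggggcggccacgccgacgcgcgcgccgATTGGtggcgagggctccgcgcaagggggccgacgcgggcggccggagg
Hspe1 held the run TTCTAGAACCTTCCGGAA, at 89 to 72 bases before its start (chr1:55088059-55088076), which contains 1 GAANNTTC between 2 TTCNNGAA. A second, more internal Hspd1 promoter in the table covers the same run. The only peak of the locus was in WT-2 (chr1:55088240-55088641, fold 4.86), with its summit 65 bp before the Hspd1 start and inside Hspe1. It covered 254 bases of the Hspd1 promoter shown and none of the Hspe1 promoter, and the heat shock run lay under no peak in any list. Covered bases were 0 and 402 in WT (201 ± 284, n = 2) and 0 and 0 in miR-187 (exact permutation p = 1), a pattern of 9.07% of protein-coding genes.

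Hspa9 encodes mortalin, the mitochondrial matrix HSP70, and lies at chr18:34937414-34954351. WT-2 had a peak at chr18:34954603-34955051 (fold 5.35) and KI-1 at chr18:34954626-34954979 (fold 7.78), with summits 337 and 461 bp outside the gene. The miR-187 peak had the highest fold and the highest rank, above 92.4% of its list, of the 21. Neither folds nor ranks are on 1 scale across libraries, so this order is a description only. Covered bases were 0 and 449 in WT (224.5 ± 317, n = 2) and 354 and 0 in miR-187 (177 ± 250, n = 2). Each group thus held 1 library with and 1 without a peak (difference -47.5 bases, exact permutation p = 1).

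The strength of the member peaks was ranked within each list, because folds from libraries of different background are not on 1 scale. The strongest peak of each locus had a median percentile rank by q of 78.4 in WT-1, 56.3 in WT-2, 78.8 in KI-1 and 6.44, from 1 peak, in KI-2. These ranks depend on the length of each list. Among the strongest 1483 peaks of each list the median was 9.07 in WT-1, 61.4 in KI-1 and 6.44 in KI-2, with no chaperone peak left in WT-2. Among peaks with −log10 q of at least 5 it was 24.6, 30.8 and 31.7 in WT-1, WT-2 and KI-1, with none left in KI-2, so the order of the libraries is not a result. Reads at the summits, inferred as whole numbers, were 11 to 13 in WT-1, 14 to 22 in WT-2, 12 to 14 in KI-1 and 5 in KI-2. The smallest summits that any peak of these lists had were 4, 7, 5 and 4 reads. Scaled to the background of KI-2, the WT-1 summits would hold 6.48 to 7.66 reads, the KI-1 summits 6.15 to 7.17 and the WT-2 summits 2.77 to 4.35. At that background 3.98, 1.43, 3.87 and 1 loci were expected to keep a peak, which gives 2.70 ± 1.81 (SD, n = 2) in WT and 2.44 ± 2.03 (n = 2) in miR-187. The group difference in loci was -3.5 as listed and -0.266 after this scaling, which matches the inferred backgrounds only and not read totals. Covered bases over the 9 loci were 1703 and 3843 in WT (2773 ± 1513, n = 2) and 3155 and 200 in miR-187 (1678 ± 2090, n = 2), so the groups overlapped. Without KI-2 the difference changed from -1095.5 to 382 bases, that is, to the other direction.

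**Figure D4:**
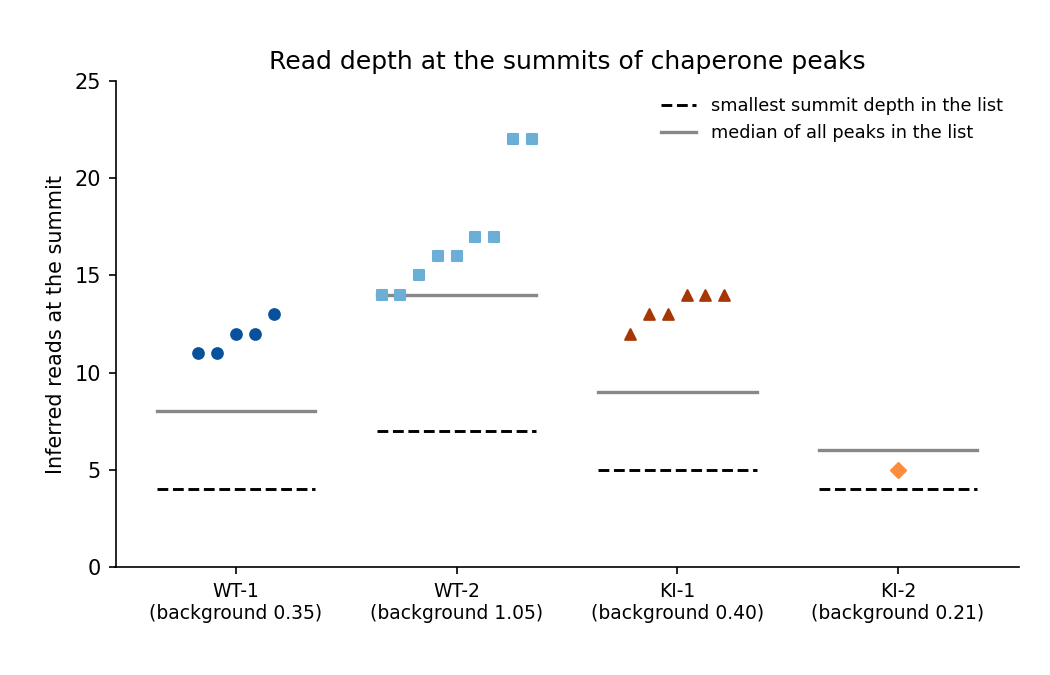
Points give the inferred reads at the summit of each chaperone peak, by library, with the median (grey line) and the smallest value (dashed line) over all peaks of the list. The background under each name is in reads per 200 bp, and the points lie at 11 to 13, 14 to 22, 12 to 14 and 5 reads.

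Other genes of the chaperone network were read by the same rule from 8 lists with 90 genes in all. A peak was listed at 49 of them in WT-1 (54.4%), 69 in WT-2 (76.7%), 44 in KI-1 (48.9%) and 8 in KI-2 (8.89%), and 15 had none in any list. Each share was above that of all protein-coding genes, but these lists too were chosen with earlier results of the data known. A peak in each WT list and no miR-187 list was found at 15 of the 90 (16.7%), against 7.88% of all genes, and the reverse at 0. More of the 90 had peaks in WT-1 and WT-2 alike (44, or 48.9%, against 23.4% of genes), and among these the share with none in miR-187 was 34.1%, against 33.6% over all genes. Covered bases were higher in both WT libraries than in either miR-187 library for 32 of the 90 (35.6%), against 14.6% of all genes, or for 72.7% of those with peaks in WT-1 and WT-2 alike, against 62.5% of all such genes. They were higher in both miR-187 libraries for 0.

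The lists differed in detail. The TRiC chaperonin and prefoldin fold actin and tubulin. In WT-1, WT-2, KI-1 and KI-2 they had a peak at 11, 9, 2 and 2 of 14 genes. These were 78.6%, 64.3%, 14.3% and 14.3%, against 30.9%, 39.7%, 27.0% and 5.22% of all protein-coding genes. Of the 14 genes, 9 had peaks in WT-1 and WT-2 alike, and 5 of these lacked one in miR-187. Over all genes with peaks in both WT lists, 33.6% lacked one in miR-187. The 5 were Cct2 (fold 4.4 and 3.77 in WT-1 and WT-2), Cct4 (5.81 and 7.55), Cct5 (4.35 and 4.73), Cct7 and Pfdn2. The Cct5 peaks also lie in the window of Atpsckmt, the Cct7 peaks in that of Pradc1, and the Pfdn2 peaks in that of Nit1 or Klhdc9. When each list was reduced to its strongest 1483 peaks, the counts for TRiC and prefoldin were 1, 2, 1 and 2, and those for all 90 genes were 11, 19, 16 and 8, or 12.2%, 21.1%, 17.8% and 8.89%, against 6.49%, 7.06%, 6.64% and 5.22% of all protein-coding genes. The 8 mitochondrial folding and protease genes had a peak in 5, 7, 8 and 0, the highest count being that of KI-1, but 0, 1, 1 and 0 among the strongest 1483 peaks. The 16 DNAJ cochaperones had 5, 12, 10 and 0 as listed, and 1, 3, 3 and 0 among the strongest 1483 peaks. The 10 other HSP70 genes had 5, 8, 6 and 0, and 1, 2, 2 and 0 among the strongest. The 7 small heat shock proteins had 1, 3, 2 and 0, and then 1, 0, 0 and 0. The 18 cofactors of HSP70 and HSP90 had 11, 14, 9 and 2, and 5, 7, 7 and 2 among the strongest. For the 9 ER folding genes the counts were 6, 9, 3 and 2, and 1, 2, 2 and 2. For the 8 stress regulators they were 5, 7, 4 and 2, and 1, 2, 0 and 2. The all-gene shares for both settings are those given above in this paragraph. No list was tested against another.

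Of the 90 genes, 5 (5.56%) had a peak in all 4 lists, against 2.35% of all protein-coding genes. Ern1, which encodes the ER stress sensor IRE1, had a peak 53 to 106 bp from its boundary in every library, with fold 7.26 and 6.25 in WT and 6.52 and 5.71 in miR-187. Calr, which encodes calreticulin, an ER lectin chaperone, had fold 5.61 and 6.19 in WT and 6.37 and 5 in miR-187. Its peaks also lie in the window of 1700122E12Rik. Ahsa1, the activator of the HSP90 ATPase, had fold 5.32 and 7.30 in WT and 7.65 and 4.17 in miR-187, in a window shared with Vipas39, and its KI-2 peak overlapped none of the other 3. At Canx, the membrane-bound partner of calreticulin, the peaks of KI-1 and KI-2 lay at opposite ends of the gene, and at Atf6, the ER stress activator itself, several peaks lay deep in the gene, up to 62696 bp from a boundary. A peak at these genes therefore marks the same position in all 4 libraries only for some of them.

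The remaining genes with peaks only in the WT pair were Hspa4, Dnajb2, Dnajc7, Stip1, St13, Pdia4, Pdia6, Sdf2l1, Hsf2 and Eif2ak3. Stip1, which links HSP70 to HSP90, had a strongest fold of 4.17 in WT-1 and 6.04 in WT-2. St13, an HSP70-binding cofactor, had 5.81 and 5.21, in a window shared with Xpnpep3. Among ER genes, the disulfide isomerases Pdia4 and Pdia6 had 5.95 and 5.33, and 5 and 4.31, and Sdf2l1, a partner of BiP, had 5.29 and 6.36. The peaks of Pdia4, Dnajc7 and Hsf2 also lie in the windows of Rpl35a-ps7, Nkiras2 and 4930467K11Rik. At Hspa4, Dnajb2 and Eif2ak3 the WT peaks lay at different places of the gene, so the pattern there is one of counts and not of a shared peak.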

How the data were processed

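ATAC-seq was done on 2 WT and 2 miR-187 libraries from P0 mouse hearts. Per the labels the authors used Bowtie2 2.2.6, SAMtools 1.10 and MACS2 2.2.7.1 with build mm10 (GRCm38). Options, read totals and the handling of duplicate and mitochondrial reads are not given in the sources used here. Each deposited list gave for its own library, with replicates not pooled, the coordinates and summit of each peak, the fold enrichment over local background (a ratio), the −log10 p and −log10 q, and a score, the whole part of 10 times that −log10 q. The largest q was between 0.0463 and 0.0498. The authors' values were used as deposited.

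Groups came from the sample titles. Scaffold peaks (6, 20, 6 and 0) were left out. Genes and promoters came from RefSeq GRCm38.p6. A peak was assigned to a gene by its summit, and the bases of the window inside such peaks were compared by a 2-sided exact permutation test of the group means over 6 assignments, with Benjamini-Hochberg adjustment over genes with a peak in any list. Counts of loci were described without a test. The members and lists were chosen with earlier results of these data known. All 10 members were named, and of the other chaperone genes those with a peak in all 4 lists or in both lists of 1 group only.

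To infer depth, fold was taken as (pileup + 1)/(background + 1) and p as the Poisson tail above the pileup, and a whole-number pileup was solved for 100% of peaks within 0.0005 in −log10 p. The lowest background of a list was taken as its genome-wide level. Read numbers are inferred, and relative depth rests on this level alone. The solver and the permutation test were checked on simulated data. Alternatives were a −log10 q of at least 5, equal numbers of peaks, windows of 1 and 5 kb, gene boundaries only, any overlap in place of the summit, thinning to the lowest inferred background, leaving out each replicate and the replicate number as a block. Scripts ran in Python 3.11.15 with scipy 1.17.1 for tests, pandas 2.3.3 and numpy 2.4.6 for tables, and matplotlib 3.10.9.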

Additional observations from a re-analysis of the deposited data

How the results depend on the processing

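Of 162 values recomputed without the replicate block, 121 kept their direction. The count of loci whose WT values all exceeded the miR-187 values had to stay within 1.5 times, and differences of totals also within the SD. Of the rest, 11 differences at single loci became 0, 9 totals or counts moved further and 21 took the other direction. Of these 21, 10 came on leaving out a library and 10 with equal numbers of peaks or thinning. No comparison ranks these limits. All differences are miR-187 minus WT. Taking the 1483 strongest peaks of each list, the difference was 0.5 loci and 0.5 peaks, 112.5 covered bases, 177 bases at Hspa9 and -3 other chaperone genes (main -33). Thinned to the lowest inferred background it was -0.266 loci, 0.0547 peaks, 265.7 covered bases, 83.2 bases at Hspa5, 29.0 at Hsp90b1, 121 at Hsph1, 98.8 at Hspa9 and -8.60 other genes. With −log10 q of at least 5, Hsp90b1 gave 286 bases. The count of loci whose WT values all exceeded the miR-187 values (1, Hspa8) was 0 with that threshold, 0 with equal numbers and 2 with a 5 kb window, where Hsp90ab1 joined it, against 4.09%, 1.51% and 16.1% of all protein-coding genes.

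Leaving out each replicate gave differences of -5.5 to -1.5 loci (main -3.5), -6 to -1 peaks and -51 to -15 other chaperone genes, each lowest without KI-1 and highest without KI-2. Without WT-1 and WT-2 they were -5 and -2 loci, -5.5 and -1.5 peaks, and -43 and -23 genes. It gave -2573 to 382 covered bases over all loci, the highest without KI-2, a median rank difference of -60.9 to 11.5 (main -24.7), the highest again without KI-2, and 1 to 4 non-overlapping loci. That count was 4 without WT-1, 2 without WT-2, 4 without KI-1 and 1 without KI-2, where 33.5%, 22.1%, 22.6% and 15.0% of all protein-coding genes met the same condition. By locus the range was -328 to 307 bases at Hspa5, -455.5 to 116.5 at Hsp90b1, -443.5 to 426.5 at Hsph1, -7.5 to 516.5 at Dnajb1, -272 to 177 at Hspa9, -776 to 0 at Hsp90aa1, -349 to 0 at Hsp90ab1, and -402 to 0 at Hspd1/Hspe1. At Hspa8 the range was -403 to -298 bases. The values in the other direction came without KI-2 (307, 116.5, 426.5 and, at Hspa9, 129.5), without WT-2 (116.5 at Hspa5, 106 at Hsph1, 177 at Hspa9) and without KI-1 (-7.5 at Dnajb1). The cause was not tested. The group difference in median rank had no value with −log10 q of at least 5 or with equal numbers, where KI-2 and WT-2 in turn held no chaperone peak, or after thinning.

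With the replicate number as a block the differences are -3.5 loci, -3.5 peaks, -1095.5 bases, -24.7 in median rank and -33 other genes, the same as without it by construction in a balanced design of 2 against 2, so they say nothing about stability. The count of loci was 1, and the exact sign-flip test cannot go below p = 0.5. The correlation of deviations between libraries of 1 number was -0.128 (11143 genes), and the numbers mark no shared animal or batch in the labels. A crossed pairing, chosen after seeing the data, also gave 1.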
